A study of Homo sapiens with 204 samples.

Results

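The 48 genes described here build the mitotic spindle, attach chromosomes to it, time the exit from mitosis or compact the chromosomes. They were chosen by name, and all 48 were found among the 42333 gene identifiers of the RNA-seq and Ribo-seq count tables. All 48 also passed the filter on low values, which kept genes with at least 1 CPM (counts per 1000000 of the library's counts) in at least 11 libraries. The filter used unscaled CPM, and the levels of the 48 genes and of CDKN1A given below are CPM scaled by TMM. The cells were A549, a human lung adenocarcinoma line with intact p53, and each culture received a small interfering RNA (siRNA) at 40 nM for 24 h before cycloheximide was added to hold ribosomes in place. The siRNA was directed against 1 of 75 ribosomal proteins (44 of the large and 31 of the small ribosomal subunit) in the knockdown libraries and was non-targeting in the controls, so control cells went through the same transfection. Each lysate gave an RNA-seq library, which measures mRNA amounts, and a Ribo-seq library, which counts the mRNA fragments covered by ribosomes (footprints). Each assay has 91 knockdown and 11 control libraries, with 2 libraries for 16 targets and 1 library for 59.

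A cell enters mitosis when cyclin A and cyclin B activate the kinase CDK1, which is switched on by CDC25 phosphatases and whose marks are shielded from removal by the kinase MASTL. Spindle microtubules then bind chromosomes at kinetochores, the checkpoint proteins hold the anaphase-promoting complex (APC/C) in check until all chromosomes are attached, and CDC20 and UBE2C drive the destruction of cyclin B and securin. Most of these mRNAs are made late in the cell cycle. Their promoters often hold a cell cycle genes homology region (CHR) with the core TTTGAA, the site of the MuvB-containing complexes, and CCAAT boxes, the site of NF-Y. The kinase inhibitor p21, encoded by CDKN1A, is induced by p53 and keeps the repressing form of the MuvB complex in place.

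Promoter sequences are shown here because the 48 genes moved together in the results that follow. RefSeq promoters (GRCh38.p14) were found for 41 of the 48 genes, and AURKA, TPX2, BIRC5, FOXM1, UBE2C, TTK and BUB3 had no entry. Within the 250 bases before the annotated start, TTTGAA was found on either strand in 22 of the 41 (53.7%), against 11.9% of the 10960 tested genes with an entry and 13.3% of all 35116 promoters. CCAAT was found on either strand in 29 (70.7%), against 41.2% of tested genes and 32% of all promoters. Both motifs were present in 17 (41.5%), against 4.69% of tested genes and 4.69% of all promoters. The motifs were searched separately, and neither contains the other. The sequences below are the 120 bases directly before the start of 6 genes with both motifs, CCNB1 with CCAAT alone and CENPE with neither, printed 5′ to 3′ in the direction of the gene. Capitals mark the TTTGAA and CCAAT motifs, which read as their reverse complements where they lie on the other strand.

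CDC20 (chr1:43358861-43358980, plus strand): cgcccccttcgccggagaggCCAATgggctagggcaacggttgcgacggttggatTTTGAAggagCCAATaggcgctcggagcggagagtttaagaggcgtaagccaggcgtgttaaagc
CCNB2 (chr15:59105026-59105145, plus strand): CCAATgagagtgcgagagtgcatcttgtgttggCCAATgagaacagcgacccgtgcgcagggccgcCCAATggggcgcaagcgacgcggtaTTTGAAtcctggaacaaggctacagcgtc
PLK1 (chr16:23678769-23678888, plus strand): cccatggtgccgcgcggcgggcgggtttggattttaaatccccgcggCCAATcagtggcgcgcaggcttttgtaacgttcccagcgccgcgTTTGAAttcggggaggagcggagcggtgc
PRC1 (chr15:90994536-90994655, minus strand): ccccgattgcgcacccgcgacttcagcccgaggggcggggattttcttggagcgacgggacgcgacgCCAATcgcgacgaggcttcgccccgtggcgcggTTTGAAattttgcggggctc
KIF4A (chrX:70289984-70290103, plus strand): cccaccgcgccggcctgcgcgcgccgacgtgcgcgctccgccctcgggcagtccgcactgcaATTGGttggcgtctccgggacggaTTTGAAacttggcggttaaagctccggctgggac
KIF11 (chr10:92593010-92593129, plus strand): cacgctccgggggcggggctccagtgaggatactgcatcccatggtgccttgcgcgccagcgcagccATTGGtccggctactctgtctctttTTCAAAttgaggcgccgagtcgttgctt
CCNB1 (chr5:69167030-69167149, plus strand): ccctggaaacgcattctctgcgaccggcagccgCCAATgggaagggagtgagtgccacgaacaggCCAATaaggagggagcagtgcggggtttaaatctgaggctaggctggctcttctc
CENPE (chr4:103198344-103198463, minus strand): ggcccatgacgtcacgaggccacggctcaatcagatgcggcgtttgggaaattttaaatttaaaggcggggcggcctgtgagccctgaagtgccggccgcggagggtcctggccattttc

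In these 6 genes TTTGAA lay 20 to 65 bases before the start. From the first base of the nearest CCAAT before it to the first base of TTTGAA there were 35 bases in CDC20, 25 in CCNB2, 44 in PLK1, 33 in PRC1, 24 in KIF4A and 25 in KIF11, and CDC20 had a further CCAAT after its TTTGAA. A match is a description of the letters in this window and says nothing about binding. Genes with and without TTTGAA had near-equal changes across all knockdowns: the median log2 fold change was −0.64 with and −0.62 without it in RNA-seq, and −0.75 and −0.64 in Ribo-seq.

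Library totals ran from 18796932 to 63569574 counts in RNA-seq (median 27806042) and from 7771312 to 57215307 in Ribo-seq (median 23809509). The targeted mRNA was below all 11 controls in 91 of 91 RNA-seq knockdown libraries, at a median of 3.8% of the control mean (range 1.14 to 16.8%). All 9 epithelial and A549 markers were detected in both assays. Of the blood markers, none reached a median of 1 CPM, but their sum reached 228 CPM in 1 Ribo-seq library of RPS26, nearly all of it HBB (227 CPM), against at most 2.64 CPM in the controls. HBB was called higher in Ribo-seq (log2 fold change 3.47 ± 1.12, adjusted p = 0.014), and the summed blood markers were above all controls in 7 knockdown libraries; their part in the results was not tested. Endothelial markers were at or near 0, and of 6 fibroblast markers COL1A1 led with a median of 18.8 CPM in RNA-seq. Libraries fall into 2 sets by their titles, numbered (38 libraries per assay, 6 of them controls) and unnumbered (64, with 5 controls), and the set was a term in each test over both. The RNA-seq controls 20_1 and 20_2 stood apart for several long mRNAs: CENPE was at 0.741 and 0.405 CPM there and at 3.18 to 37.8 CPM in the other 9 controls, and CENPF was at 28.2 and 13.01 CPM against 72.4 to 186 CPM. In Ribo-seq of the same lysates CENPE was at 85.2 and 93.2 CPM, within the range of the other controls.

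Across all knockdowns, mitotic genes were lower than in control cells in both assays. In RNA-seq 36 of the 48 were lower, none was higher, and all 48 fold changes were negative, with a median log2 fold change of −0.63 against −0.03 over all genes tested. The background was 17.2% of 15526 genes lower and 13.4% higher. Without the filter on low values, 22 of the 48 were lower, against a background of 6.08%. In Ribo-seq 43 of the 48 were lower and none was higher, the median was −0.72 against −0.0036 over all genes, and the background was 13.5% of 12793 genes lower and 13.2% higher. Single genes ran from −1.24 to −0.18 in RNA-seq and from −1.19 to −0.24 in Ribo-seq. The test was edgeR's quasi-likelihood test with Benjamini-Hochberg adjustment over all genes tested and a threshold of 0.05. Nothing in the labels says whether libraries of a group came from separate cultures. The p-values therefore rest on the spread between these libraries, which for knockdowns includes the spread between targets. Where a target has 2 libraries, they entered separately, with no term for the target. In such bulk samples fewer cells in G2 and mitosis and less mRNA per cell cannot be told apart. Within the numbered set 12 of the 48 were lower in RNA-seq (median −0.64, background 5.71%) and within the unnumbered set 8 (median −0.60, background 5.8%). The Ribo-seq counts were 22 (median −0.63, background 8.99%) and 10 (median −0.76, background 1.92%). Without controls 20_1 and 20_2, 32 were lower in RNA-seq and 39 in Ribo-seq, and no background is given for these counts.

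**Figure D1:**
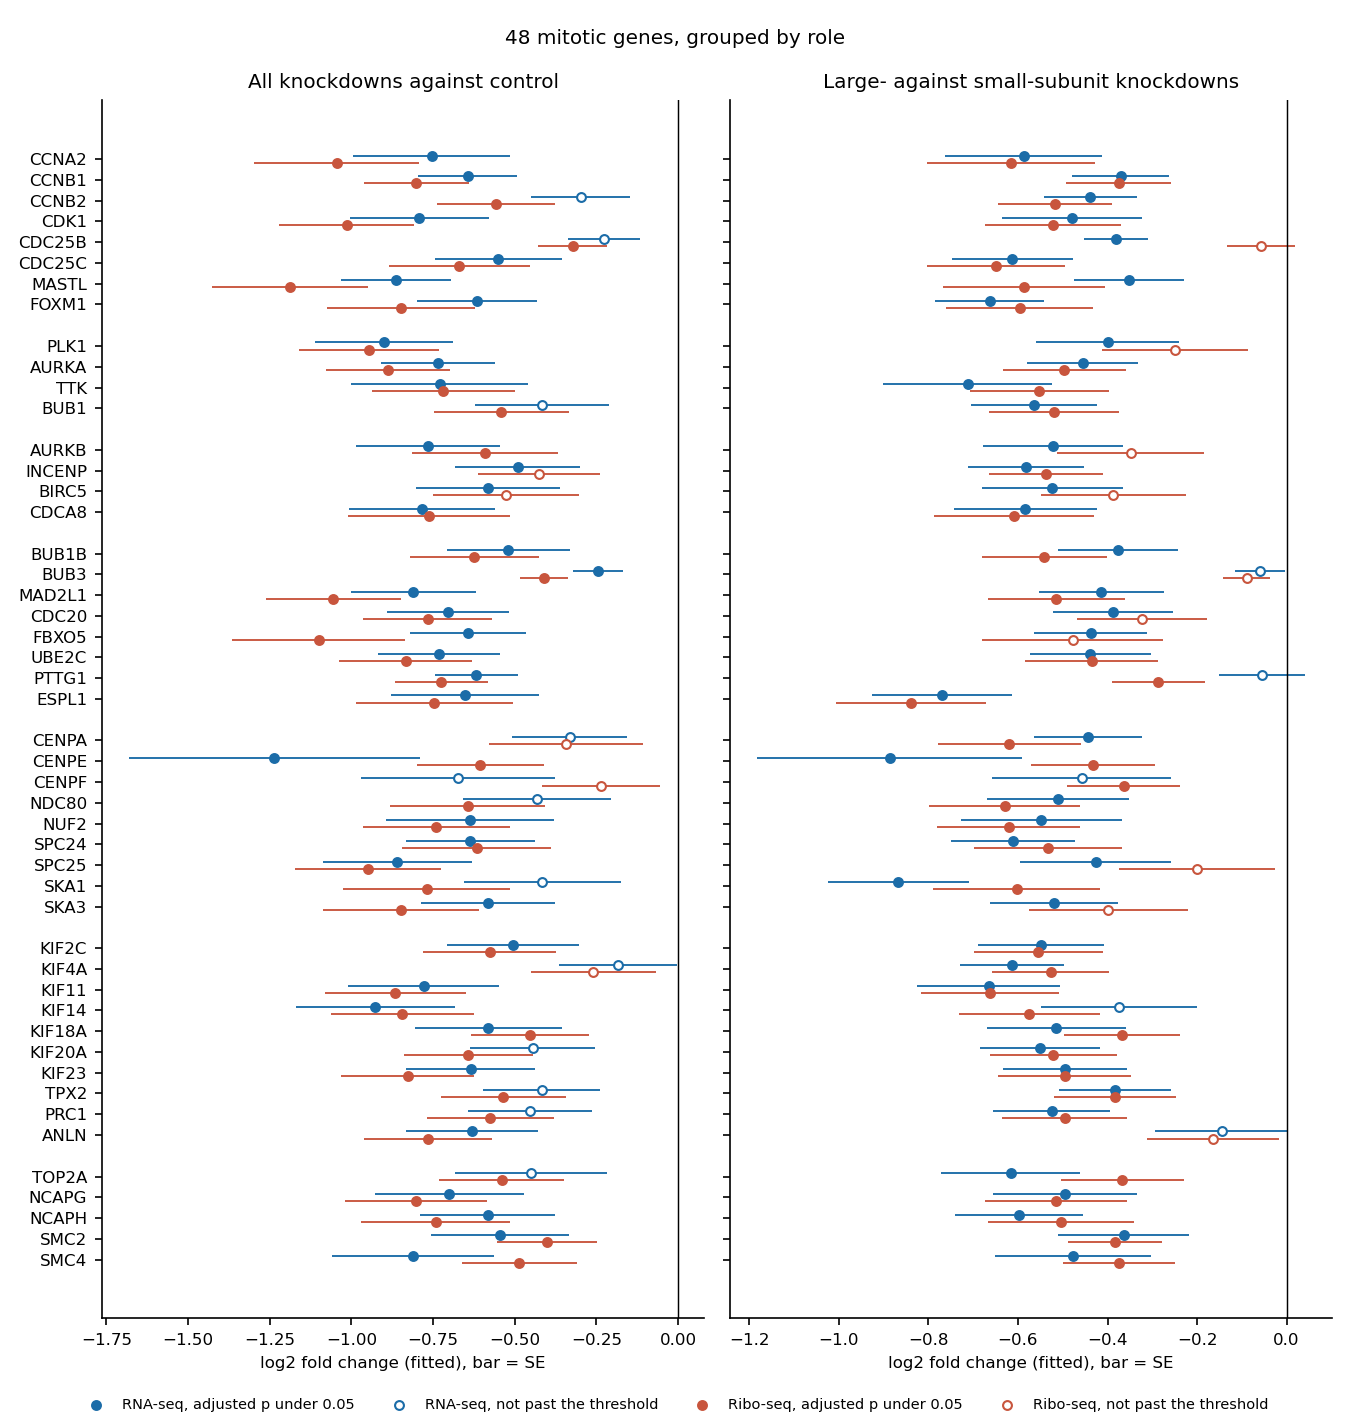
Fitted log2 fold change (x axis, bars are SE) of the 48 genes (y axis, grouped by role) in RNA-seq and Ribo-seq, for all knockdowns against control and for large- against small-subunit knockdowns; filled points have an adjusted p under 0.05. All 48 lie left of 0 in both comparisons and assays, with RNA-seq medians of −0.63 and −0.50.

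The entry switch comprised cyclins CCNA2, CCNB1 and CCNB2, the kinase CDK1, the phosphatases CDC25B and CDC25C, MASTL and the transcription factor FOXM1. Of these 8 genes 6 were lower at the mRNA level (median log2 fold change −0.63) and all 8 in footprints (−0.82). Cyclin B1 mRNA (CCNB1) was at 161, 174 and 211 CPM (lowest, median, highest) in the numbered controls and at 166, 177 and 201 CPM in the unnumbered ones. In knockdown libraries it was at 54.9, 123 and 169 CPM in the numbered set and at 42.0, 112 and 201 CPM in the unnumbered set. It was below all controls of its set in 83 of 91 libraries, so the groups overlapped only at the upper end of the knockdowns. The fitted log2 fold change of CCNB1 was −0.64 ± 0.15 (SE; adjusted p = 0.00056) in RNA-seq and −0.80 ± 0.16 (5.6e-05) in Ribo-seq. MASTL, which blocks the phosphatase that would undo phosphorylation by CDK1, had the largest Ribo-seq change of all 48. Its footprints were at 54.5, 67.4 and 96.4 CPM in numbered controls and at 72.7, 82.4 and 89.5 CPM in unnumbered ones. In knockdowns they were at 7.78, 38.96 and 58.6 CPM and at 7.42, 29.2 and 95.4 CPM, below all controls of the set in 84 of 91 libraries. The log2 fold change of MASTL was −1.19 ± 0.24 (adjusted p = 6.4e-05) in Ribo-seq and −0.86 ± 0.17 (3.6e-05) in RNA-seq. CCNA2 footprints were below all controls in 86 of 91 libraries, with a log2 fold change of −1.04 ± 0.25 in Ribo-seq.

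CDC25B, a phosphatase that starts CDK1 activation at the centrosome, moved least in this group. Its mRNA was at 356, 427 and 821 CPM in numbered controls and at 329, 370 and 448 CPM in unnumbered ones. In knockdowns it was at 255, 434 and 721 CPM and at 151, 324 and 445 CPM, so the groups overlapped widely. The RNA-seq log2 fold change of CDC25B was −0.23 ± 0.11 (adjusted p = 0.11) and the Ribo-seq one −0.32 ± 0.11 (0.015), the latter past the threshold. Its footprints went from 204, 316 and 400 CPM in numbered controls to 142, 226 and 355 CPM, and from 225, 265 and 282 CPM in unnumbered ones to 88.0, 205 and 353 CPM. CCNB2 (−0.30 ± 0.15, adjusted p = 0.13) was the other member of the group that did not pass in RNA-seq.

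Among the mitotic kinases PLK1, AURKA, TTK and BUB1, mRNA was lower for 3 of 4 (median −0.73) and footprints for 4 of 4 (median −0.80). PLK1 acts from mitotic entry to cytokinesis. Its mRNA was at 225, 296 and 475 CPM in numbered controls and at 191, 198 and 264 CPM in unnumbered ones. In knockdowns it was at 54.0, 170 and 269 CPM and at 17.6, 98.9 and 225 CPM. It was below all controls of its set in 77 of 91 libraries and above them in none. The log2 fold change of PLK1 was −0.90 ± 0.21 (adjusted p = 0.00056) in RNA-seq and −0.95 ± 0.21 (0.00035) in Ribo-seq. AURKA, which matures centrosomes and builds spindle poles, was at 147, 160 and 179 CPM and 135, 149 and 175 CPM in the controls. Its mRNA in knockdowns was at 36.6, 108 and 148 CPM and at 30.3, 76.7 and 184 CPM, below all controls in 83 of 91 libraries. The log2 fold change of AURKA was −0.73 ± 0.17 (adjusted p = 0.00061) in RNA-seq and −0.89 ± 0.19 (0.00016) in Ribo-seq. BUB1, a kinase of the checkpoint, was at −0.42 ± 0.21 in RNA-seq, which did not pass (adjusted p = 0.11).

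The chromosomal passenger complex, which corrects faulty attachments, consists of AURKB, INCENP, BIRC5 (survivin) and CDCA8 (borealin). All 4 were lower in RNA-seq (median log2 fold change −0.67), AURKB by −0.77 ± 0.22 and CDCA8 by −0.78 ± 0.22. In Ribo-seq 2 of 4 were lower (median −0.56). BIRC5 (−0.53 ± 0.22, adjusted p = 0.066) and INCENP (−0.43 ± 0.19, 0.081) did not pass there. It was the only one of the 7 role groups with a smaller median in Ribo-seq than in RNA-seq apart from chromosome structure.

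Checkpoint and anaphase control comprised BUB1B, BUB3 and MAD2L1 of the checkpoint, the APC/C activator CDC20, the APC/C inhibitor FBXO5 (EMI1), the ubiquitin-conjugating enzyme UBE2C, securin (PTTG1) and separase (ESPL1). All 8 were lower in both assays, with medians of −0.65 for mRNA and −0.76 for footprints. CDC20 mRNA was at 110, 156 and 235 CPM in numbered controls and at 97.1, 120 and 139 CPM in unnumbered ones. In knockdowns it was at 34.8, 103 and 146 CPM and at 19.3, 70.0 and 148 CPM, below all controls in 68 of 91 libraries. The log2 fold change of CDC20 was −0.70 ± 0.19 (adjusted p = 0.0022) in RNA-seq and −0.77 ± 0.20 (0.0019) in Ribo-seq. The genes with the largest footprint losses in this group were FBXO5 and MAD2L1. FBXO5 footprints fell from 29.3, 38.5 and 63.0 CPM to 4.51, 23.1 and 37.2 CPM in the numbered set and from 38.1, 53.1 and 58.9 CPM to 1.93, 19.3 and 61.9 CPM in the unnumbered set. Its Ribo-seq log2 fold change was −1.10 ± 0.26 (adjusted p = 0.00082). MAD2L1 footprints were at 40.5, 48.5 and 115 CPM in numbered and at 65.7, 115 and 125 CPM in unnumbered controls, and at 8.50, 32.5 and 66.1 CPM and 12.6, 48.04 and 120 CPM in knockdowns. The Ribo-seq log2 fold change of MAD2L1 was −1.06 ± 0.21 (adjusted p = 4.1e-05), and the groups overlapped in the numbered set, where 4 controls were at 40.5 to 48.8 CPM and both libraries of control 21 above 111 CPM.

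BUB3 is a WD-repeat protein that brings BUB1 and BUB1B to kinetochores. Its change was small, and the spread between libraries was small too. BUB3 mRNA was at 104, 135 and 176 CPM in numbered controls and at 147, 184 and 186 CPM in unnumbered ones, against 84.2, 119 and 174 CPM and 87.2, 146 and 195 CPM in knockdowns. The fold change was −0.24 ± 0.08 (adjusted p = 0.011) in RNA-seq and −0.41 ± 0.07 (6.9e-06) in Ribo-seq, on the log2 scale. Footprints of BUB3 were below all controls in 81 of 91 libraries, while its mRNA was in 40.

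Of 9 kinetochore genes, 5 were lower in RNA-seq and 7 in Ribo-seq, with medians of −0.64 in both. NDC80, NUF2, SPC24 and SPC25 form the NDC80 complex, which binds microtubules, and SKA1 and SKA3 stabilise that contact. SPC25 was at −0.86 ± 0.23 (adjusted p = 0.0022) in RNA-seq and −0.95 ± 0.22 (0.00062) in Ribo-seq. NDC80, SKA1, CENPA and CENPF did not pass in RNA-seq, and CENPA and CENPF did not pass in Ribo-seq. CENPA, the histone that marks centromeres, was at −0.34 ± 0.24 (adjusted p = 0.29) in Ribo-seq. CENPF was at −0.24 ± 0.18 (adjusted p = 0.35) in Ribo-seq. Its footprints were at 233, 271 and 319 CPM in numbered and 252, 279 and 305 CPM in unnumbered controls, against 53.6, 265 and 455 CPM and 59.6, 192 and 369 CPM in knockdowns, so values lay on both sides of the controls.

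CENPE, a kinetochore motor that moves chromosomes to the spindle equator, had the largest RNA-seq fold change, −1.24 ± 0.44 on the log2 scale (adjusted p = 0.026), and the least steady one. Its mRNA was at 0.405, 12.1 and 37.8 CPM in numbered controls and at 3.18, 8.05 and 18.6 CPM in unnumbered ones. In knockdowns it was at 0.161, 1.59 and 33.6 CPM in the numbered set and at 1.47, 7.63 and 43.7 CPM in the unnumbered set, below all controls in only 6 of 91 libraries. Within the numbered set the log2 fold change of CENPE was −2.01, and within the unnumbered set it was 0.31, so the direction was not shared by both sets. In Ribo-seq CENPE was at −0.61 ± 0.19 (adjusted p = 0.013), with −0.47 and −0.75 in the numbered and unnumbered set, and its footprints were below all controls in 66 of 91 libraries. KIF14, SMC4 and CENPF mRNA were also lowest among controls in library 20_2, at 4.19, 16.9 and 13.01 CPM. Without controls 20_1 and 20_2 the RNA-seq log2 fold change of CENPE was −1.49 (adjusted p = 0.0087) and that of CENPF went from −0.67 (adjusted p = 0.074) to −0.88 (0.023), which passed. Those of KIF14 and SMC4 passed with and without these libraries, at −0.93 and −0.81 with them and −1.12 and −1.01 without. The part of RNA quality in these levels was not tested.

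Motors, spindle and furrow genes were KIF2C, KIF4A, KIF11, KIF14, KIF18A, KIF20A, KIF23, TPX2, PRC1 and ANLN. Of these 10, 6 had lower mRNA (median −0.54) and 9 had lower footprints (median −0.61). KIF14, a kinesin of cytokinesis, had an RNA-seq log2 fold change of −0.93 ± 0.24 (adjusted p = 0.0020) and a Ribo-seq one of −0.84 ± 0.22 (0.0020). Its mRNA was at 4.19, 42.1 and 67.5 CPM in numbered and 31.5, 51.4 and 59.4 CPM in unnumbered controls, against 3.68, 13.8 and 52.1 CPM and 9.76, 31.8 and 62.9 CPM in knockdowns. Ribo-seq separated the groups better, with KIF14 footprints below all controls in 82 of 91 libraries against 30 for its mRNA. KIF11 (Eg5), which pushes the spindle poles apart, was at −0.78 ± 0.23 in RNA-seq and −0.87 ± 0.22 in Ribo-seq, both past the threshold. KIF4A, a chromosome-bound kinesin, did not pass in either assay. Its RNA-seq log2 fold change was −0.18 ± 0.18 (adjusted p = 0.46) over both sets and 0.04 within the numbered one. KIF4A mRNA was at 41.4, 57.9 and 61.6 CPM in numbered and 49.9, 56.4 and 67.9 CPM in unnumbered controls, against 20.1, 59.03 and 87.0 CPM and 12.8, 40.7 and 80.5 CPM in knockdowns. It was below all controls of its set in 43 libraries and above all of them in 20, the largest number above for any of the 48 mRNAs. KIF4A footprints were at 65.1, 73.0 and 85.1 CPM and 61.1, 65.9 and 66.6 CPM in controls, against 23.8, 76.5 and 106 CPM and 11.4, 43.5 and 91.1 CPM in knockdowns, again on both sides (−0.26 ± 0.19, adjusted p = 0.33).

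Chromosome structure was represented by TOP2A, which untangles DNA, and by NCAPG, NCAPH, SMC2 and SMC4 of condensin. Of these 5, 4 had lower mRNA (median −0.58) and all 5 lower footprints (median −0.54). TOP2A mRNA was at 85.2, 297 and 480 CPM in numbered and 273, 367 and 482 CPM in unnumbered controls, against 59.1, 160 and 459 CPM and 38.6, 284 and 571 CPM in knockdowns. The overlap was wide, with 33 of 91 libraries below all controls. The log2 fold change of TOP2A was −0.45 ± 0.23 (adjusted p = 0.13) in RNA-seq and −0.54 ± 0.19 (0.026) in Ribo-seq.

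**Figure D2:**
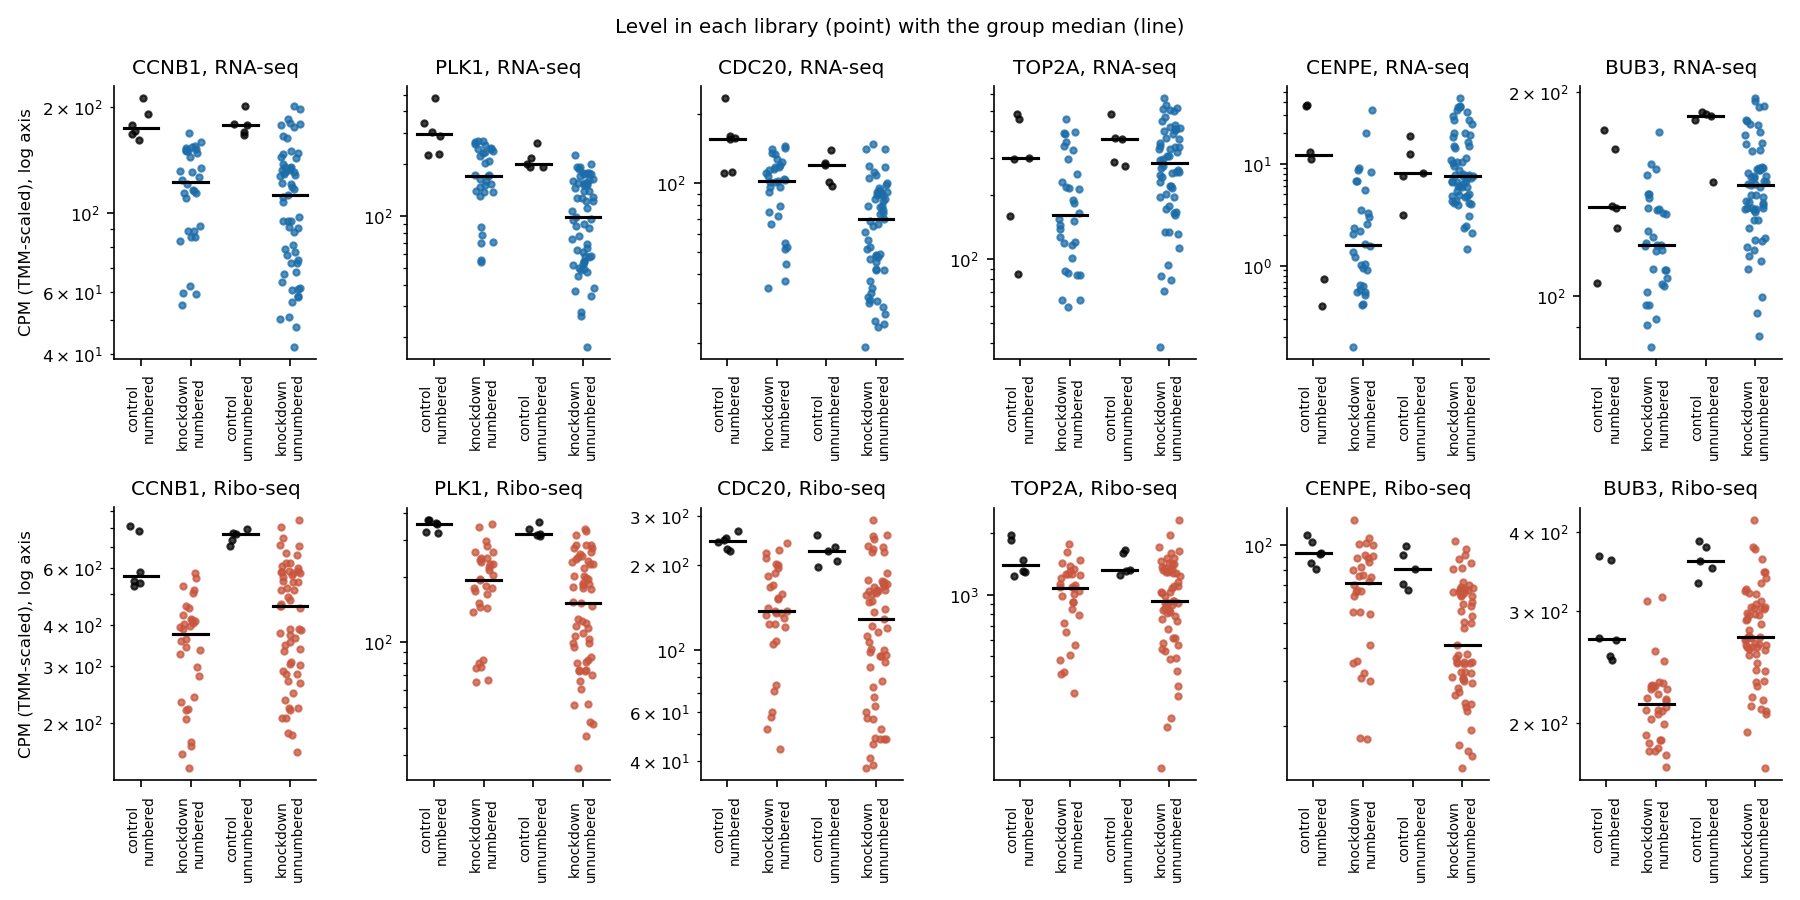
CPM (log axis) of CCNB1, PLK1, CDC20, TOP2A, CENPE and BUB3 in each library (points) by group, with RNA-seq in the top row and Ribo-seq in the bottom row; lines are group medians. CCNB1 was below all controls of its set in 83 of 91 RNA-seq knockdown libraries and CENPE in 6.

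Both assays called 34 of the 48 genes lower, with 2 more in RNA-seq alone, 9 more in Ribo-seq alone and 3 in neither (KIF4A, CENPA and CENPF). Over the 12480 genes with a test in each assay, 9.13% were lower in both, 7.69% in RNA-seq and not in Ribo-seq, and 4.64% in Ribo-seq and not in RNA-seq. The Ribo-seq fold change was the more negative in 36 of the 48, against 46% of all these genes and 71.1% of those lower in both. The change in translation efficiency (footprints relative to mRNA) was tested as an interaction of assay and group in edgeR. It called 0 of 48 genes lower or higher, against a background of 0.024% lower and 0.353% higher of 12480 genes. At an unadjusted p under 0.05 it called 0 of the 48 as well. The median log2 change in efficiency was −0.12, from −0.47 (FBXO5), −0.37 (SKA1) and −0.34 (MASTL) up to 0.31 (SMC4), 0.42 (CENPF) and 0.61 (CENPE). That model does not use the fact that both libraries come from 1 lysate. With the ratio of Ribo-seq to RNA-seq taken within each lysate and tested with limma, 5 of 48 were lower and 0 higher (background 0.938% lower and 1.79% higher). The median was −0.15. At an unadjusted p under 0.05, 18 of 48 were negative, a count for which no share over all genes is given. The 5 were FBXO5 (−0.66 ± 0.19, adjusted p = 0.041), MASTL (−0.50 ± 0.14, 0.032), CCNA2 (−0.37 ± 0.09, 0.0094), CCNB2 (−0.30 ± 0.07, 0.0050) and KIF20A (−0.23 ± 0.06, 0.0073). The most positive values, for CENPF (0.33 ± 0.26) and AURKB (0.15 ± 0.06), did not pass. FBXO5 had an efficiency ratio below its control level in 68 of 75 targets, as had CCNA2, CCNB2, AURKA, NDC80 and SKA3. Over the 48 genes this number ran from 17 (BIRC5) to 69 (KIF23). FBXO5 was lower by more than 1 log2 unit in 19 targets and CENPE in 25. No share over all genes is given for these counts.

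Loss of large-subunit proteins was compared with loss of small-subunit proteins, with the controls kept in the fit as a group of their own. The 2 libraries of a target entered separately, with no term for the target, so the p-values treat them as independent. Mitotic genes were lower in large-subunit knockdowns: 43 of 48 in RNA-seq (background 16.4% lower and 15.2% higher, median −0.50) and 38 of 48 in Ribo-seq (background 11.2% lower and 10.9% higher, median −0.51), and none was higher. Within the numbered set, with 4 large- and 12 small-subunit targets, 11 were lower in RNA-seq (background 7.38%) and 11 in Ribo-seq (7.56%). Within the unnumbered set, with 40 and 19 targets, 38 were lower in RNA-seq (background 14.4%) and 8 in Ribo-seq (5.65%).

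Separase (ESPL1), the protease that cuts cohesin at anaphase, had the largest Ribo-seq difference between the subunits. Its footprints were at 2.95, 17.1 and 50.5 CPM in large-subunit knockdowns and at 9.53, 40.9 and 70.5 CPM in small-subunit ones. The log2 difference for ESPL1 was −0.84 ± 0.17 (adjusted p = 8.3e-05) in Ribo-seq and −0.77 ± 0.16 (5.9e-05) in RNA-seq. SKA1 mRNA was at 4.32, 14.7 and 47.1 CPM against 7.86, 31.7 and 49.4 CPM, a log2 difference of −0.87 ± 0.16 (adjusted p = 8.2e-06). The ranges overlapped for both genes, and it was the medians that stood apart by over 2-fold. CENPE mRNA was at 0.517, 6.00 and 29.6 CPM against 0.161, 6.83 and 43.7 CPM, with a log2 difference of −0.89 ± 0.30 (adjusted p = 0.015). That difference was −0.11 within the numbered and −1.35 within the unnumbered set, and −0.63 without the title set as a term, where it did not pass. In Ribo-seq the log2 difference for CENPE was −0.43 ± 0.14 (adjusted p = 0.016). Footprints of KIF11 were at 27.5, 96.3 and 294 CPM against 68.9, 177 and 279 CPM, and those of CDC25C at 3.71, 13.6 and 42.5 CPM against 10.3, 25.6 and 39.7 CPM. Their log2 differences were −0.66 ± 0.15 (adjusted p = 0.00071) for KIF11 and −0.65 ± 0.15 (0.00094) for CDC25C.

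KIF4A, which did not pass against control, differed between the subunits. Its mRNA was at 12.8, 33.1 and 80.5 CPM in large- and 19.5, 61.9 and 87.0 CPM in small-subunit knockdowns. The log2 difference for KIF4A was −0.61 ± 0.12 (adjusted p = 1.8e-05) in RNA-seq and −0.53 ± 0.13 (0.0015) in Ribo-seq. The smallest differences were those of PTTG1, BUB3 and ANLN in RNA-seq. PTTG1 mRNA was at 53.2, 91.1 and 178 CPM against 47.4, 96.9 and 159 CPM (−0.06 ± 0.09, adjusted p = 0.70). BUB3 mRNA was at 87.2, 135 and 195 CPM against 84.2, 135 and 193 CPM (−0.06 ± 0.06, adjusted p = 0.44), so the ranges were nearly the same. The sign for PTTG1, BUB3 and ANLN depended on the title set or its use as a term. ANLN (anillin, of the cleavage furrow) was at 27.1, 77.6 and 169 CPM against 24.98, 72.9 and 155 CPM (−0.14 ± 0.15, adjusted p = 0.48). In Ribo-seq the smallest were CDC25B (−0.06 ± 0.08, adjusted p = 0.64), BUB3 (−0.09 ± 0.05, 0.22) and ANLN (−0.16 ± 0.15, 0.45). CDC25B footprints were at 126, 194 and 315 CPM with large- and 88.0, 219 and 355 CPM with small-subunit targets. PLK1 (−0.25 ± 0.16, adjusted p = 0.28) and CDC20 (−0.32 ± 0.15, 0.099) did not pass in Ribo-seq, while in RNA-seq both did (−0.40 ± 0.16 and −0.39 ± 0.13).

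The 16 targets with 2 libraries were each tested against the 6 controls of the numbered set, so their comparisons share those controls. Of the 768 pairs of gene and target, 358 (46.6%) were lower and 12 higher in RNA-seq, against 12.5% and 10.8% of all gene and target pairs. In Ribo-seq 481 (62.6%) were lower and 10 higher, against 15.4% lower and 13.9% higher over all pairs. RPL15 and RPL21 lowered nearly the whole set: 47 and 48 genes in RNA-seq (background 18.9% and 17.3%) and 48 each in Ribo-seq (20.7% and 19.8%). RPS3 (35 and 47 genes; background 13.3% and 21.2%), RPS9 (30 and 44; 12.5% and 16.6%) and RPL24 (29 and 43; 13.7% and 16.2%) followed. RPS16 gave 20 and 36 (background 15.8% and 19.2%), RPS15A 21 and 23 (8.5% and 9.65%), and RPS15 26 and 17 (18.9% and 13.3%). The RPS16 columns lie outside the first stretch of columns, which holds the other targets tested here and controls 11 and 20. What this adds to the RPS16 counts was not tested. RPS7 gave 8 and 24 (background 7.6% and 12.7%), RPS12 9 and 23 (13.9% and 16.8%), RPS10 8 and 18 (8.15% and 13.6%), and RPS26 6 and 12 (8.71% and 13.4%).

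**Figure D3:**
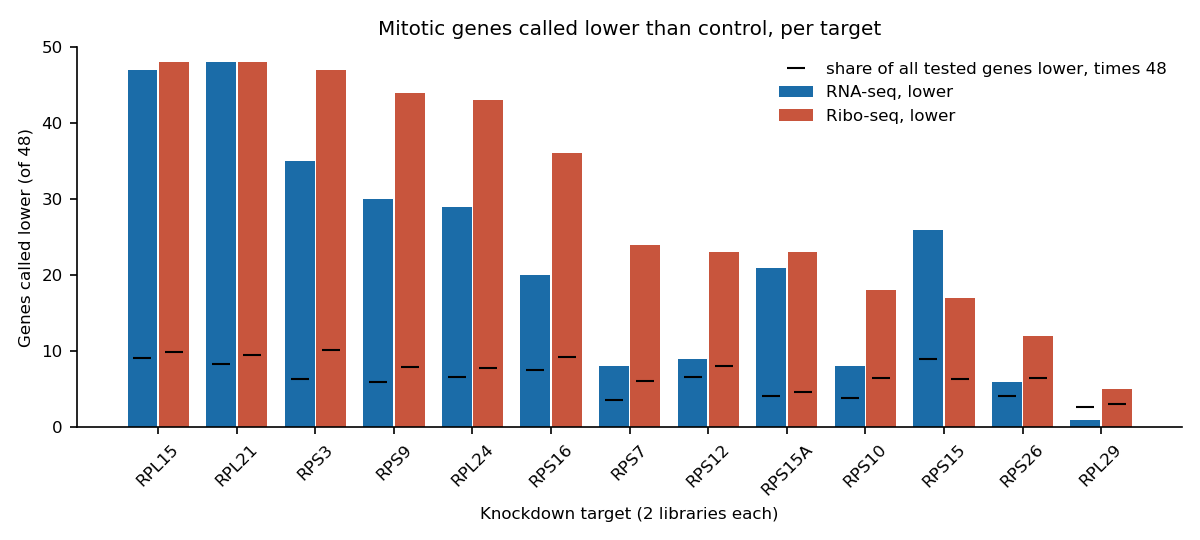
Number of the 48 genes (y axis) lower than control for 13 of the 16 targets with 2 libraries (x axis), in RNA-seq and Ribo-seq; black dashes give the share of all tested genes lower, times 48. Bars reach 48 of 48 in Ribo-seq for RPL15 and RPL21 and 5 for RPL29.

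RPL29 gave 1 gene lower and 2 higher in RNA-seq (background 5.55% and 4.57%) and 5 lower and 4 higher in Ribo-seq (background 6.41% and 6.7%), close to the background. CCNB1 mRNA was at 169 and 154 CPM in the RPL29 libraries, against 62.1 and 59.5 CPM with RPL15. PLK1 mRNA was at 268 and 258 CPM with RPL29 and at 55.9 and 54.0 CPM with RPL15, which are log2 changes of −0.26 ± 0.18 and −2.52 ± 0.21. The gene that did fall with RPL29 in both assays was ESPL1, at 28.4 and 26.2 CPM in RNA-seq (−1.11 ± 0.21, adjusted p = 0.00060) and 20.4 and 20.4 CPM in Ribo-seq (−1.60 ± 0.16, adjusted p = 1.8e-08). Of the 22 pairs called higher, 10 were KIF4A, with log2 changes of 0.31 to 0.57, in targets that included RPL29, RPS10, RPS12, RPS15 and RPS26. The RNA-seq count of pairs called higher depended on the libraries of control 20, going from 12 to 25 without control 20_2 and to 45 without both 20_1 and 20_2. With 1 library per target, where the spread comes from the other groups, pairs called lower went from 358 to 232 or 227. No share over all gene and target pairs is given for these recomputed counts.

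Over all 75 targets, 59 of which have 1 library per assay and no replicate check, each gene was set against the controls of its set as a log2 ratio of CPM (pseudocount 0.5). The median over the 48 genes ran from −2.62 to 0.17 in Ribo-seq (median over targets −0.67) and from −2.20 to 0.25 in RNA-seq (−0.52). RPL8 was lowest (−2.62 in Ribo-seq, −2.20 in RNA-seq), followed by RPL7 (−2.58 and −2.10) and RPL4 (−2.43 and −1.98), all of the large subunit. RPS27L (0.17 and 0.25), RPL11 (0.15 and 0.07) and RPS4Y (0.06 and 0.11) were highest in Ribo-seq, and RPS27L, RPL5 (0.20) and RPL22 (0.15) in RNA-seq. The median was −1.22 over large-subunit targets in Ribo-seq and −0.39 over small-subunit ones. Small-subunit targets were not uniform, since 5 of 31 had a median below −1 and RPS18 stood lowest among them. All 48 genes were below every control of their set in 25 targets in Ribo-seq and in 4 in RNA-seq. Of the 3600 pairs of gene and target, 76.4% were below all controls in Ribo-seq and 59.1% in RNA-seq, against 23.4% and 24.1% of such pairs over all genes. Above all controls were 4.39% and 4.67%, against 23.8% and 23.3%.

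RPL5 and RPL11 form, with 5S rRNA, the particle that binds MDM2 when ribosome assembly is disturbed. With RPL5 siRNA the median log2 ratio was 0.20 in RNA-seq and −0.15 in Ribo-seq, and with RPL11 siRNA 0.07 and 0.15. With RPL5, 4 of the 48 mRNAs were below all controls (background 23.1%) and 14 above (23%), and 23 were below in Ribo-seq (29.9%) and 7 above (25.6%). With RPL11, 7 mRNAs were below (background 24.0%) and 10 above (23.1%), and 6 were below in Ribo-seq (23.4%) and 22 above (25.5%). RPL5 thus had more mitotic genes with low footprints than with low mRNA, by counts alone, and its median log2 efficiency ratio was −0.31 against 0.11 for RPL11. CDKN1A mRNA was near control in both (log2 ratio −0.05 and 0.17), whereas it was at 4.16 with RPL8, where all 48 genes were below all controls in both assays (background 32% in RNA-seq and 27.2% in Ribo-seq).

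**Figure D4:**
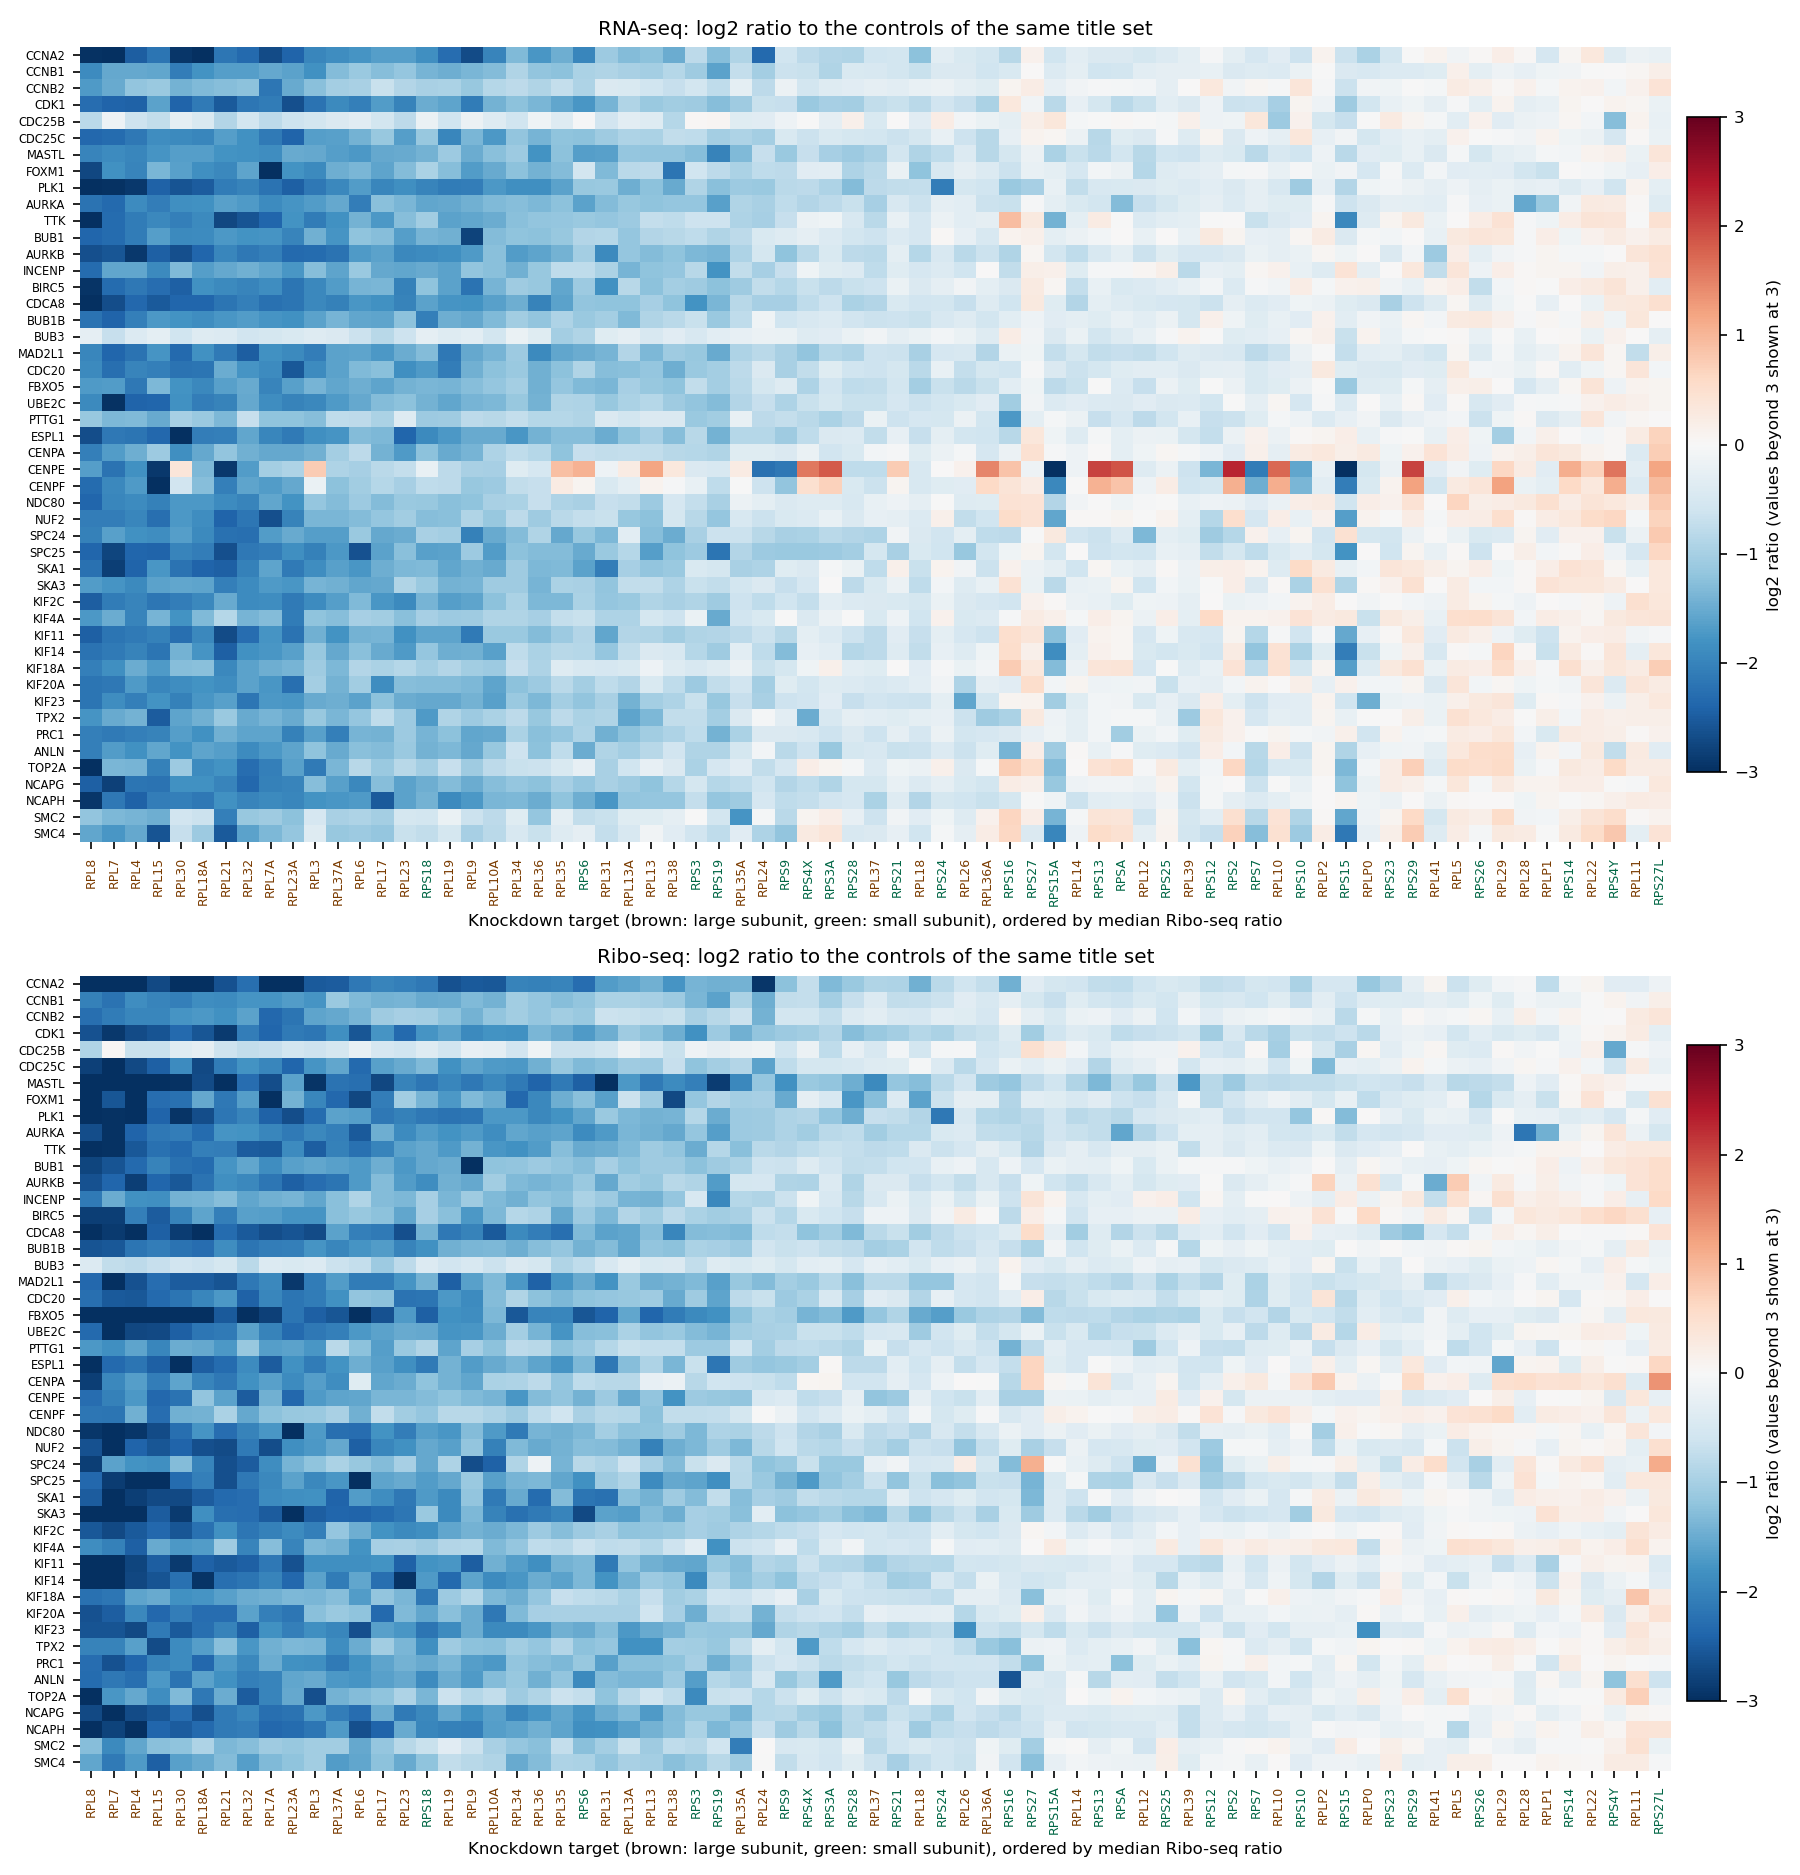
Log2 ratio to the controls of the same title set (colour, limited to ±3) of the 48 genes (rows, by role) in 71 of the 75 targets (columns, ordered by the Ribo-seq median; brown labels for large and green for small subunit), in RNA-seq (top) and Ribo-seq (bottom). The left end is RPL8 at a Ribo-seq median of −2.62 and the right end RPS27L at 0.17; BUB3 and CDC25B are paler than other rows and CENPE is mixed in RNA-seq.

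The genes varied together over targets, and BUB3 and CDC25B varied least with the others. Each gene was correlated with each of the other 47 and given the median of these values, and over the 48 genes this had a median of 0.78 over the 16 numbered and 0.90 over the 59 unnumbered targets in RNA-seq, and 0.88 and 0.87 in Ribo-seq. BUB3 was lowest over the numbered targets (0.40 and 0.45) and CDC25B over the unnumbered ones (0.41 and 0.28). These points share library, depth and controls, and the values are descriptive. The SD over targets was widest for CENPE in RNA-seq (1.32) and for FBXO5 in Ribo-seq (1.09), and smallest for BUB3 (0.25 and 0.24).

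Single genes lay far out of step with the rest in some targets. By a rule chosen after the values were seen (at least 1 log2 unit below what the target's median and the gene's own median give, in both assays), 18 of the 3600 pairs stood out as lower. They covered 13 genes and 18 targets, each target once, and 3 of these pairs have 2 libraries. CCNA2 with RPL24 siRNA was at 14.01 and 13.1 CPM in RNA-seq, against 43.5 to 96.9 CPM in controls, and at 20.7 and 20.97 CPM in Ribo-seq, against 153 to 174 CPM. Its log2 fold changes were −2.41 ± 0.23 and −2.95 ± 0.12 (SE), while the median gene of the 48 was at −0.87 and −0.88 with this target. ANLN with RPS16 siRNA was at 53.6 and 48.6 CPM in Ribo-seq against 289 to 366 CPM (−2.62 ± 0.14) and at 32.8 and 38.7 CPM in RNA-seq against 29.5 to 160 CPM (−1.58 ± 0.37). These pairs were picked for their size, so no test is given.

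The other pairs described here have 1 library per assay. FOXM1 with RPL7A siRNA was at 12.1 CPM in RNA-seq against 208 to 276 CPM in controls and at 1.16 CPM in Ribo-seq against 29.3 to 48.3 CPM. AURKA with RPL28 siRNA was at 52.4 CPM against 135 to 175 CPM and at 40.2 CPM against 155 to 194 CPM, in a target whose median gene was near control (−0.06 and −0.07). PLK1 stood out with RPS24 (49.4 CPM in RNA-seq and 73.4 in Ribo-seq), where controls were at 191 to 264 and 313 to 363 CPM. CDC25B stood out with RPS4Y (151 CPM against 329 to 448 in RNA-seq, 88.0 against 225 to 282 in Ribo-seq) and with RPL10. Further pairs were CCNA2 with RPL7, BUB1 with RPL9, KIF23 with RPLP0 and RPL26, SPC25 with RPL6, ESPL1 with RPL30, FOXM1 with RPL38, SMC2 with RPL35A and TPX2 with RPS4X. In the other direction 9 pairs stood out, BUB3 in 7 targets and CDC25B in RPL30 and RPL7, where their ratios stayed closer to control than those of the other genes. With RPL8 siRNA, BUB3 mRNA was at 145 CPM against 147 to 186 CPM in controls.

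CDKN1A was measured beside the 48 genes as the p53 target whose product p21 inhibits the kinases that drive the cycle. Its mRNA was at 139, 184 and 247 CPM in numbered controls and at 115, 140 and 171 CPM in unnumbered ones, and at 142, 338 and 1274 CPM and 55.7, 496 and 2553 CPM in knockdowns. CDKN1A was above all controls of its set in 70 of 91 RNA-seq knockdown libraries and below them in 3. Its log2 fold change across all knockdowns was 1.54 ± 0.34 (adjusted p = 0.00027) in RNA-seq and 1.79 ± 0.34 (1.7e-05) in Ribo-seq.

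Over targets, the correlation with CDKN1A was negative for all 48 genes within each title set. Pearson's r with CDKN1A had a median of −0.72 over the 16 numbered targets and −0.82 over the 59 unnumbered ones. It passed the threshold in 44 and 48 of the 48 genes (permutation test, 100000 resamples, two-sided, Benjamini-Hochberg over all 96 relations). An r below −0.5 was found for 44 and 46 genes, against a background of 9.11% and 10.4% of all genes. Without the 2 targets farthest from the CDKN1A median, the median r was −0.63 and −0.81. For CCNB1 r was −0.76 (rho −0.70) over the numbered targets, with permutation p = 0.00062 and adjusted p = 0.00090, and −0.85 (rho −0.88) over the unnumbered ones, where 1e-05 is the smallest p the resamples give. Without the 2 farthest targets r was −0.74 and −0.84. The 4 that did not pass over the numbered targets were CENPE (r −0.35, adjusted permutation p = 0.19), BUB3 (−0.37, 0.16), CDC25B (−0.49, 0.056) and SMC2 (−0.50, 0.053). By Spearman's rho the counts were 40 and 48. In Ribo-seq the relation passed in 46 and 48 genes, with a median r of −0.80 and −0.79. An r below −0.5 was found there for 46 and 47 genes, against 8.69% and 5.47% of all genes. The permutation test was run on the 48 genes alone, so its counts have no share over all genes beside them. CDKN1A and the genes come from the same libraries and scaling factors.

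**Figure D5:**
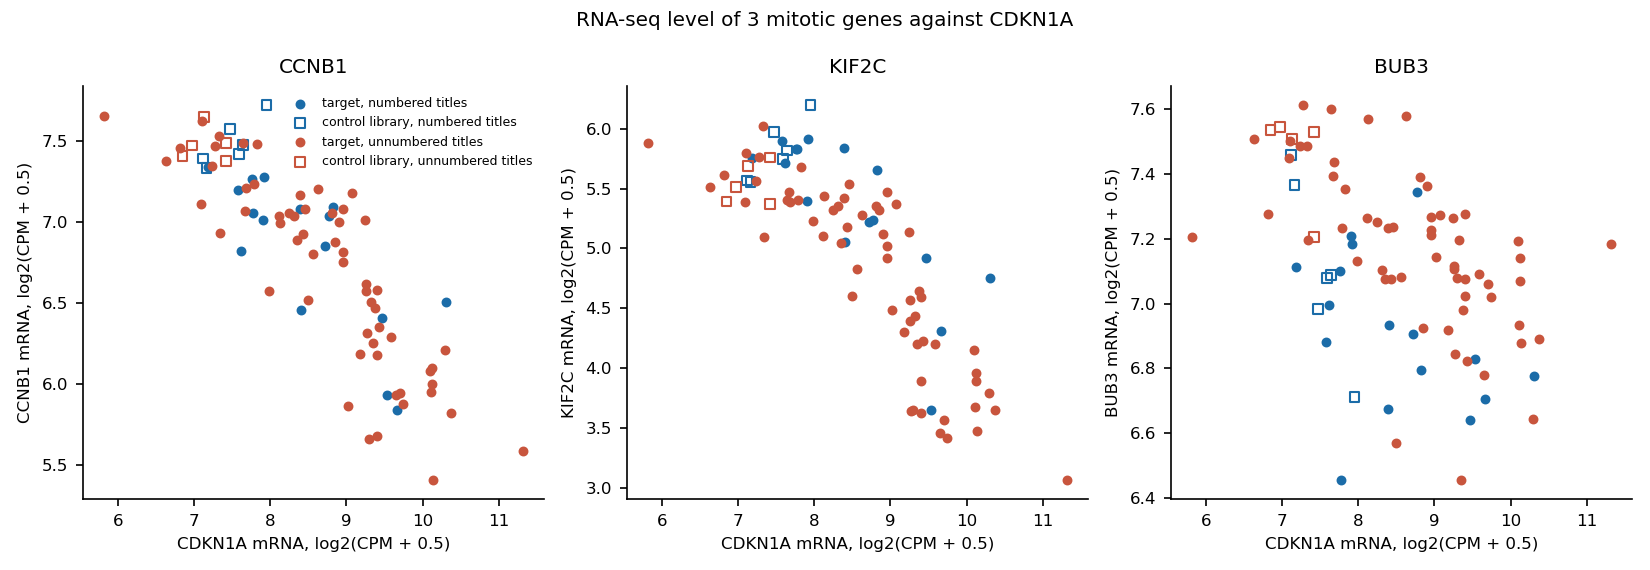
RNA-seq level of CCNB1, KIF2C and BUB3 (y axis, log2(CPM + 0.5)) against CDKN1A (x axis, same scale); filled points are targets (mean of their libraries) and open squares are control libraries, by title set. CCNB1 and KIF2C fall with rising CDKN1A (r −0.76 and −0.79 over the numbered targets), and BUB3 is more scattered (−0.37).

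Other genes of the pathway, from lists chosen by name with earlier results of these data known, are given for comparison. Their counts stand against the background for all knockdowns, which was 17.2% lower and 13.4% higher in RNA-seq and 13.5% and 13.2% in Ribo-seq. Of 69 other mitosis genes 46 were lower in RNA-seq and 45 in Ribo-seq (medians −0.53 and −0.54), and 1 was higher in each. The higher one was ZW10, of the complex that brings dynein to kinetochores, at 1.07 ± 0.11 (adjusted p = 4.5e-13) in RNA-seq and 1.11 ± 0.12 (3.2e-13) in Ribo-seq. After ZW10 the smallest p-values belonged to TUBG1 (γ-tubulin, −0.43 ± 0.08) and CENPM (−0.74 ± 0.14) in RNA-seq and to TUBA1B (α-tubulin, −0.70 ± 0.12) and ZWILCH (−0.91 ± 0.16) in Ribo-seq. DNA replication genes were lower too, 25 of 34 by mRNA (median −0.54) and 27 of the 33 tested by footprints (median −0.66). The flap endonuclease FEN1 (−0.99 ± 0.20), the helicase subunit MCM7 (−0.84 ± 0.18) and the helicase loader CDC6 (−0.91 ± 0.22) led in RNA-seq. Of 15 regulators of mitotic transcription 5 were lower and 1 higher in RNA-seq. MYBL2, the B-MYB partner of the activating MuvB complex, was at −0.73 ± 0.20 (adjusted p = 0.0036), the MuvB subunit LIN52 at −0.46 ± 0.13 (0.0048), and RBL2 (p130), of the repressing complex, at 0.28 ± 0.07 (0.00098). In Ribo-seq 4 of the 15 were lower and none was higher.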

How the data were processed

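The authors deposited a table of raw read counts for each assay (genes in rows, libraries in columns). Per the file headers, RNA-seq reads were counted in exons and Ribo-seq reads in coding sequences. The submitters' processing notes name STAR 2.6.1 and cutadapt 1.8.1, bcl2fastq 2.20.0.422, and the build GRCh38. Which counter, strand setting and annotation were used is not given in the sources used here, so reads of overlapping or antisense genes cannot be told apart. In each table, 2 columns of control 21 match the control group but no single sample, since 2 titles fit, and were used as controls. The RNA-seq titles of RPS15 carry another number than its columns and Ribo-seq titles, so these were matched by target and replicate number. Lysates were paired across assays by column name.

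Tests were run with edgeR 4.0.16 in R 4.3.3 (quasi-likelihood, TMM scaling, Benjamini-Hochberg adjustment over all genes tested, threshold 0.05) on genes passing 1 CPM in 11 or more libraries. The title set was a covariate for knockdowns against control and for large against small subunit, and the 16 targets with 2 libraries were tested within the numbered set. Translation efficiency was the interaction of assay and group. Its alternative with the lysate as block used limma 3.58.1 on log2 ratios (prior count 2), since per the labels' protocols both libraries come from 1 lysate. Ratios for single targets used log2(CPM + 0.5), which understates changes of genes near 0. DESeq2 1.42.0 was an alternative. The tests were checked on simulated data.

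The 48 genes and the other lists were chosen with earlier results of these data known. Given in full are, per comparison, the 3 genes with the most negative and the 3 with the most positive log2 fold change, and CCNB1, PLK1, CDC20, AURKA, BUB3 and TOP2A. Targets named by rule are RPL5, RPL11 and the 3 with the lowest and the 3 with the highest median per assay, and the other lists are named by their 3 smallest p-values. Further genes and targets were named after their values were seen.

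Libraries of the same group, target or control, differed by more than counting noise (chi-square per degree of freedom at least 3.65 in RNA-seq and 3.69 in Ribo-seq, 41 pairs each). Same-numbered libraries did not deviate together (median correlation −0.02 for mRNA and 0.02 for footprints over 153 pairs). Libraries of 1 lysate had a median correlation of 0.08, so that pairing rests on the protocol alone. Where the shallowest library has a count of 0, up to 0.16 CPM (RNA-seq) or 0.386 CPM (Ribo-seq) is allowed (3 counts), for counting error only. For 4 targets no separate result is given here, and counts over all targets include them.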

Additional observations from a re-analysis of the deposited data

Results flagged for a closer look

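In 11 of 192 sets of 5 or 6 control values, 1 control library lay far outside the range of the others by Dixon's test. By chance this happens in about 1 of 20 sets, which is close to the share found here. Control 20_2 of the numbered set accounts for 4 of the 11, all in RNA-seq. There BIRC5 was at 219.2 CPM (other controls 123.4 to 150.4) and CDCA8 at 67.56 CPM (41.25 to 49.52), both high, while BUB1B was at 25.38 CPM (43.35 to 52.69) and KIF4A at 41.39 CPM (56.62 to 61.58), both low. Together with the low CENPE, CENPF, KIF14 and SMC4 mRNA of the same library these values run in both directions.

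The other 7 were spread over 6 libraries. In RNA-seq of the unnumbered set BIRC5 was at 166.3 CPM in control 9 (150.4 to 152.7 in the others) and BUB3 at 147.1 CPM in control 3 (181.6 to 186.3). In Ribo-seq CDCA8 was at 53.67 CPM in control 21_2 (63.53 to 69.01), AURKA at 154.9 CPM in control 1 (186.1 to 194.3), and MAD2L1 at 65.72 CPM in control 1 (111.3 to 124.6). BUB1 was at 236.0 CPM in control 3 (205.6 to 209.5) and KIF4A at 61.07 CPM in control 7 (65.32 to 66.63). The low MAD2L1 footprints of control 1 are closer to the 4 numbered controls at 40.5 to 48.8 CPM than to the other unnumbered ones.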

How the results depend on the processing

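Scaling with edgeR's RLE factors or testing with DESeq2 moved the counts of genes lower, for all knockdowns and between the subunits, by at most 1. Of 222 recomputed counts and levels 194 stayed within 1.5 times or 1 SD. Of 3328 recomputed single values, per gene or per target, most kept their result and 13 changed sign. Many more than these 13 became weaker, as where a gene no longer passed the threshold, so the sign changes alone understate how far single results moved. For all knockdowns against control in RNA-seq (36 lower), the count was 22 without the filter (background 6.08%). It was 12 in the numbered (background 5.71%) and 8 in the unnumbered set alone (5.8%), and 6 with the replicate block (8.8%). Leaving out 1 control gave 29 to 35, and leaving out both libraries of control 20 gave 32, with INCENP, BIRC5, ESPL1, KIF2C and SPC24 lost and CENPF gained. In Ribo-seq (43) the counts were 22 (background 8.99%) and 10 (1.92%) for the 2 sets, 8 (7.26%) for the block, and 37 to 41 without 1 control. No background is given for the counts with controls left out. For large against small subunit they were 11 (numbered, background 7.38%) and 11 (block, 7.18%) in RNA-seq. In Ribo-seq they were 11 (numbered, background 7.56%), 8 (unnumbered, 5.65%) and 9 (block, 7.82%). Translation efficiency gave 5 with the lysate as replicate block and 0 whichever control was left out. The replicate numbers do not pair the libraries. The block by replicate number also left out the unnumbered set, whose titles carry no such number. It left out the 2 numbered controls matched to no single sample as well. Against control, the median log2 fold change of the mitotic genes was −0.38 in RNA-seq and −0.56 in Ribo-seq under that block. It was −0.63 and −0.72 in the main tests. Because the libraries differ, the calls lost there cannot be put down to the block itself.

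Log2 fold changes that changed sign in RNA-seq were KIF4A (0.04158 numbered, 0.09281 block) and CENPE (0.3109 unnumbered) against control. Between the subunits they were BUB3 (0.04957 without the title set), KIF14 (0.07523 numbered, 0.07111 block), CENPF (0.4026, 0.3988), ANLN (0.08951, 0.09088) and PTTG1 (0.01431 unnumbered). In Ribo-seq they were CENPF (0.001911 block) and, between the subunits, BUB3 (0.051 without the title set). The causes were not tested.

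For the 16 targets, RNA-seq pairs called higher (12) went to 5 without the filter, 25 without control 20_2, 45 without both libraries of control 20, 28 with the block, 26 with column stretches as a term and 28 with controls of the first stretch alone. The stretches were chosen after seeing the data. Ribo-seq pairs called higher (10) went to 6, 18 (block) and 18 (without control 20). Without replicate 1 or 2 of the targets, pairs lower were 232 and 227 in RNA-seq and 381 and 403 in Ribo-seq, and pairs higher 4 and 2, and 3 and 4. For these recomputed pair counts no share over all gene and target pairs is given.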
